A study of Mus musculus with 18 samples.

Results

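The genes described here are 100 genes whose male-to-female ratio in the mouse heart followed that of 6 red-cell transcripts from array to array. The 6 were taken as an anchor: Slc4a1 (the band 3 anion exchanger of the red-cell membrane), Alas2 (the erythroid form of the first enzyme of heme synthesis), Fech (the last enzyme of heme synthesis), Bpgm (bisphosphoglycerate mutase, which makes 2,3-bisphosphoglycerate in red cells), Blvrb (biliverdin reductase B, abundant in red cells) and Hbb-bh1 (an embryonic beta-like globin). For each gene the Pearson correlation with the mean of the 6 was taken over the 12 arrays of control and constantly hypoxic hearts, and the 100 highest of the 5345 named genes with a value on all 18 arrays became members. Of all 10001 named genes with any value, the others were not candidates.

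Each array compared the heart of a male mouse, labelled with Cy5, with the heart of a female mouse of the same condition and duration, labelled with Cy3. The conditions were control, chronic constant hypoxia (CCH) and chronic intermittent hypoxia (CIH). Each lasted 1, 2 or 4 weeks, which makes 9 groups of 2 arrays. Strain, age and oxygen level are not in the labels. Nor do they tell whether both arrays of a group used different mice, so the p-values reflect array-to-array spread, which may be technical. No dye was swapped on the 18 arrays, so dye and sex cannot be told apart, and a ratio does not show in which sex a transcript differed.

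A value of 1 on the log2 scale used throughout means 2 times the signal from the male heart, and a negative value means more from the female heart. That direction was inferred from the Y-linked gene Eif2s3y, which read between 1.00 and 2.28 on 17 arrays. On CIH 4 weeks replicate 1 Eif2s3y read -0.03, which goes against its labels, and the counts over all members in CIH are also given without that array. The title of CIH 1 week replicate 1 says CIH for 1 week but its source names say 2 weeks of CCH, and it was grouped by its title. Control 2 weeks replicate 1 is titled a 2-week control but carries the same code, 1A, as a 1-week control, and was also grouped by its title. Between 12650 and 24512 spots had a value on each array.

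Red cells lose their nucleus and most of their organelles as they mature, and the reticulocytes that enter the blood still carry RNA for globins, heme synthesis and the machinery that clears mitochondria and ribosomes. GATA1 and KLF1 are the best known transcription factors of this lineage, and they bind GATA and CACCC motifs. A whole heart holds blood in its chambers and vessels, so its RNA includes that of reticulocytes and other blood cells. In such bulk samples fewer cells of a type and less RNA per cell cannot be told apart.

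To show what sequence lies before such genes, 3 promoters are printed, that of the anchor gene Alas2 and those of the members Mpp1 (p55, a scaffold of the red-cell membrane) and Hba-x (the embryonic zeta globin chain). Each is the 250 bases before the gene's start, read 5′ to 3′ on the gene's strand, from RefSeq on GRCm38.p6. Alas2 is chrX:150547167-150547416 on the plus strand, Mpp1 is chrX:75131017-75131266 on the minus strand and Hba-x is chr11:32276350-32276599 on the plus strand. Capitals mark matches on either strand to AGATAA, the motif of the GATA factors, or to CCNCNCCC, a form of the motif of KLF1, and neighbouring matches of the second kind may overlap.
Alas2: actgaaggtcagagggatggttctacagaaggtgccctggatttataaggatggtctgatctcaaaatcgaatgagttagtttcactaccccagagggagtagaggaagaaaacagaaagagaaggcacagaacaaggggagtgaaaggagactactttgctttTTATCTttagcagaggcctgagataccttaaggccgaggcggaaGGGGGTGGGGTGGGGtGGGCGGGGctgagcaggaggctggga
Mpp1: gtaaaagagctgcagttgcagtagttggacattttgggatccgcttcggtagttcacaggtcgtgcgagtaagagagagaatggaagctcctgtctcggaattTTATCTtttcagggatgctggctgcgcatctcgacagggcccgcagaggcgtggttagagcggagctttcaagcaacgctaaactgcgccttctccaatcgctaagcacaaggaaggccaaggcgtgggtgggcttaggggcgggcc
Hba-x: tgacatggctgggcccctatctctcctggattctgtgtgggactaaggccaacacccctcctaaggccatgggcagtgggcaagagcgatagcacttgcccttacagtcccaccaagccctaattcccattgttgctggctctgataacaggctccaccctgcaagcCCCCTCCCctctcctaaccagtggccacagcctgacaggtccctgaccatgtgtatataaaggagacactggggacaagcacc
Positions count back from the gene's start. The AGATAA match of Alas2 begins at -86 and the first of its 4 CCNCNCCC matches at -42, that of Mpp1 at -147, and the CCNCNCCC match of Hba-x at -83. The same window of the member Hbb-y was also searched, held 0 matches to either motif and is not printed. Over the 74 members found in the RefSeq table, with 99 start sites, AGATAA was in 9.09% of windows, beside 9.99% of all 32851 windows. CCNCNCCC was in 65.66% of the members' windows and 45.93% of all windows, and TGACTCA, the core of the NF-E2 motif, in 2.02% and 4.46%. All windows are those of every start in that table, on the arrays or not. The members were not compared with the genes that could be members alone. The 8 members with an AGATAA match included Isg20, Cul4b, Nxf2 and Slc7a7 beside Mpp1. A match to these letters is a description of the sequence and not a binding site.

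Within the 12 arrays that chose them, the members' correlation with the anchor ran from 0.954 for Mkrn1, an E3 ubiquitin ligase, down to 0.835 for Psme3, an activator of the proteasome. The next highest were Ube2o (0.950), Entpd7 (0.949), T2 (0.947), Ndc1 (0.941), Hba-x (0.941), Tspan14 (0.938), Ncoa4-ps (0.938), Arhgef4 (0.930) and Nxf2 (0.926). The limit fell in a continuous range, with Ccdc66 (0.842), Sfi1 (0.842), Cfap36 (0.840), Usp27x (0.837) and Psme3 just inside. Stk19 (0.833), Prdm11 (0.833), Wfdc1 (0.832), Kat2b (0.832) and Tcof1 (0.832) lay just outside. These correlations are the rule itself and support nothing further. When the rule was applied again without CCH 2 weeks replicate 1, the array with the lowest anchor of the 12, it kept 71 of the 100 genes, and over the control arrays alone it kept 43.

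On the arrays of the rule the anchor mean lay between -0.34 and 1.07 in the 6 control arrays and between -1.61 and 1.10 in the 6 CCH arrays. In the 6 CIH arrays, which the rule did not use, it was -0.79 and 0.05 at 1 week, -1.36 and -2.02 at 2 weeks and -1.42 and -1.04 at 4 weeks. As labelled, the anchor mean was below 0 on 5 of the 6 CIH arrays, and CIH 1 week replicate 2 lay near 0. Without CIH 4 weeks replicate 1, where Eif2s3y read near 0 and shows neither direction, the anchor mean was below 0 on 4 of 5. Slc4a1 averaged -1.45 (SE 0.26), Alas2 -1.43 (SE 0.31), Hbb-bh1 -1.16 (SE 0.26), Fech -1.11 (SE 0.22), Bpgm -0.79 (SE 0.19) and Blvrb -0.64 (SE 0.11) over the CIH arrays. The 6 moved together there, each correlating with the mean of the other 5 at between 0.838 (Blvrb) and 0.991 (Bpgm). Over the 12 arrays of the rule these values ran from 0.642 (Blvrb) to 0.933 (Bpgm), and the lowest pair, Fech and Blvrb, was at 0.398.

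The mean of the 100 members was -0.45 and 0.16 at 1 week of CIH, -0.97 and -1.39 at 2 weeks and -0.82 and -0.52 at 4 weeks. Its average was -0.67 ± 0.53 (SD, n = 6) in CIH, 0.22 ± 0.48 (SD, n = 6) in control and 0.06 ± 0.67 (SD, n = 6) in CCH. On CIH 2 weeks replicates 1 and 2 all 100 members were below 0, and on CIH 1 week replicate 2 only 22 were. Control 4 weeks replicate 2 was the opposite case, with 100 members above 0. CCH 2 weeks replicate 1 had 100 members below 0 and stood far from the other 5 CCH arrays, whose member means lay between 0.03 and 0.80.

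**Figure D1:**
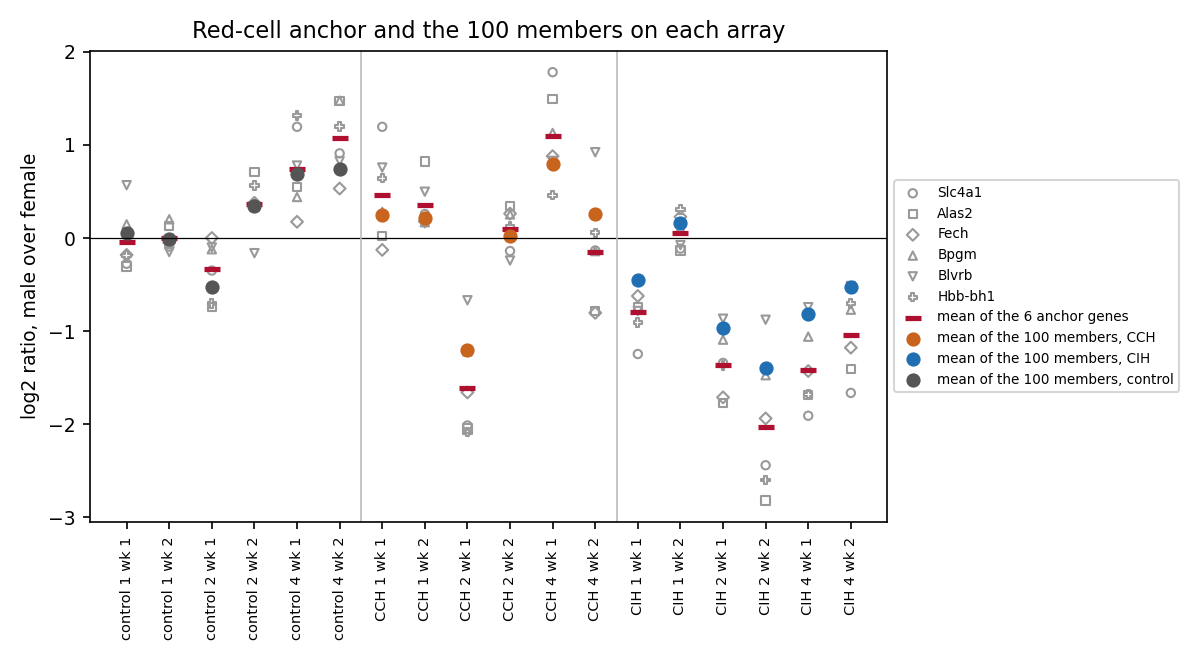
The log2 male-over-female ratio on each of the 18 arrays is plotted for the 6 anchor genes (open grey marks), their mean (red bar) and the mean of the 100 members (filled circle, coloured by condition). In CIH the member mean is below 0 on 5 of 6 arrays, with its lowest value of -1.39 on 2 weeks replicate 2.

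**Figure D2:**
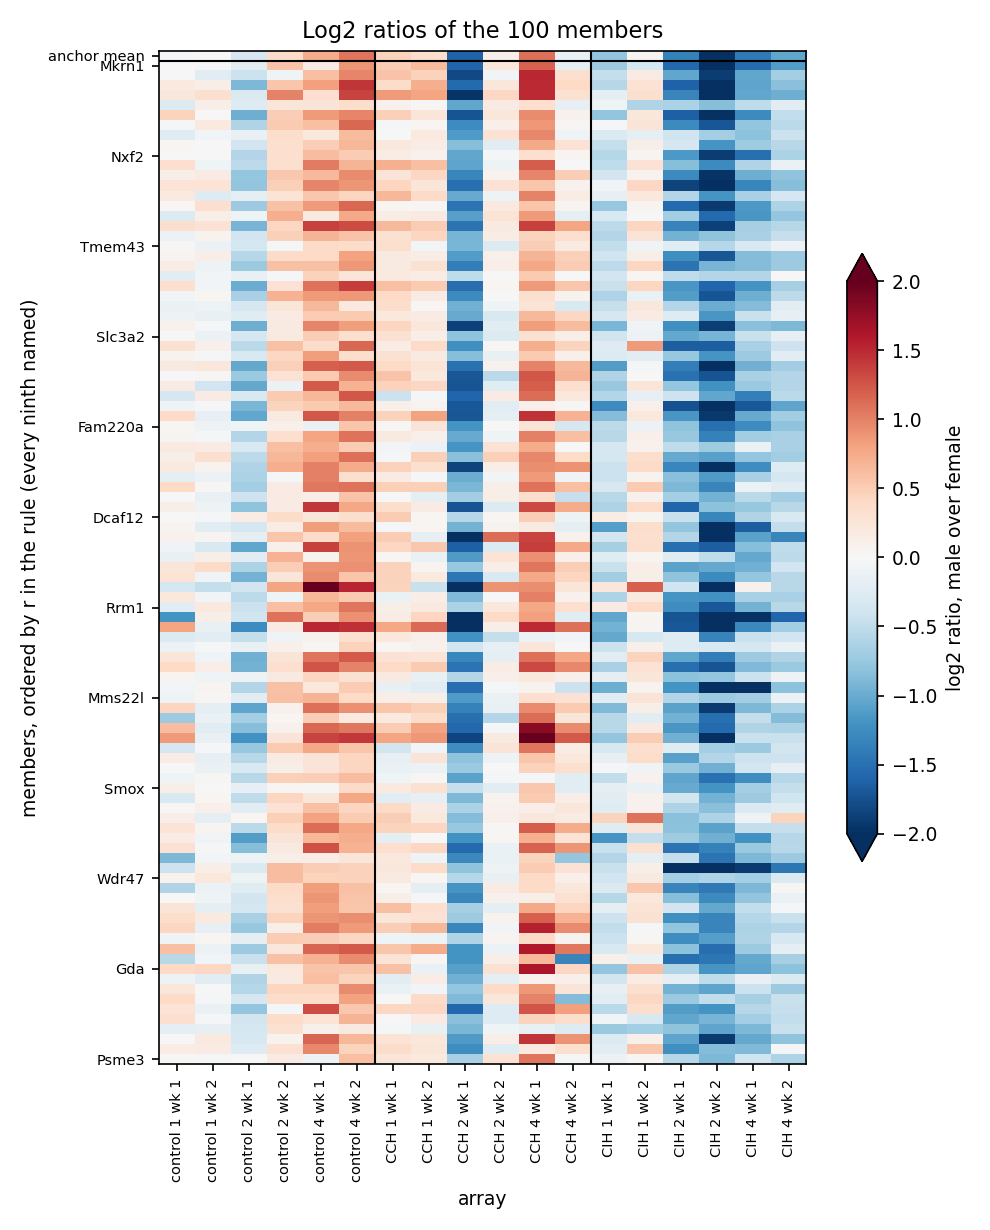
Each line of the colour map is 1 member, ordered from the highest to the lowest correlation in the rule, below a line for the anchor mean, and each column is 1 array with its log2 ratio in colour (limits -2 and 2). CIH 2 weeks replicate 2 and CCH 2 weeks replicate 1 are blue for all 100 members.

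The CIH arrays took no part in the ranking, though the members were chosen with earlier results of these data known. On these arrays all 100 members had a positive correlation with the anchor, beside 50% of the 9530 units measured on all 6. A unit is a named gene or a spot without a single gene name. The members' median Pearson r was 0.921 (range 0.385 to 0.993) and their median Spearman rho 0.886, beside a median r of -0.02 in the other 9430 units. An r of at least 0.9 was reached by 62 members, beside 4.17% of all units, and one of at least 0.8 by 85, beside 10.8%. Without CIH 4 weeks replicate 1, a count added after seeing the data, all 100 stayed positive (50.3% of all units), 70 reached 0.9 (5.66%) and 89 reached 0.8 (13.1%). Member and anchor were read from the same 6 hybridisations, so everything that moves many spots of an array together is in each of these values. Without the arrays farthest from the anchor's median, CIH 1 week replicate 2 and CIH 2 weeks replicate 2, the members' median r over 4 arrays was 0.717 and 93 stayed positive.

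**Figure D3:**
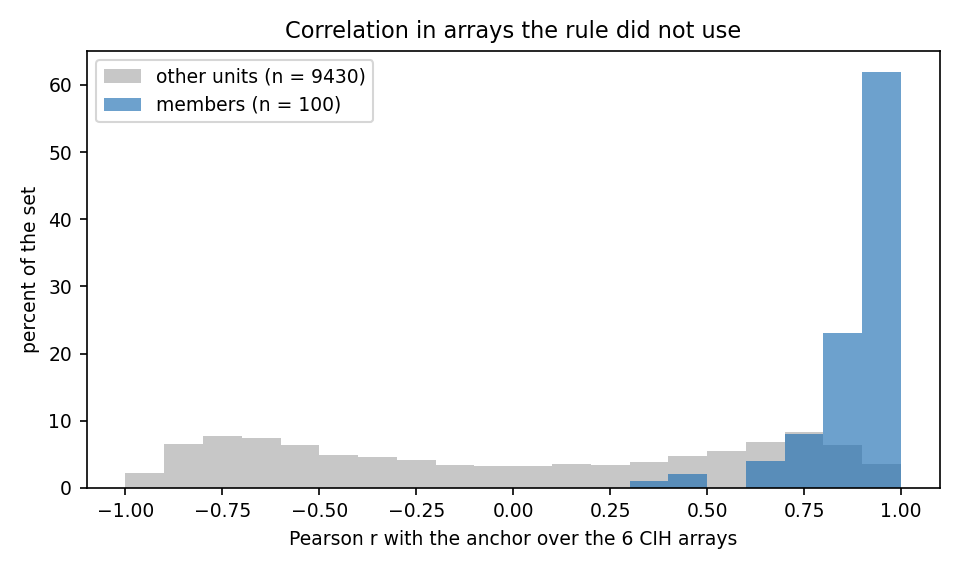
The histogram gives the percent of members (blue, n = 100) and of other units (grey, n = 9430) in each bin of Pearson r with the anchor over the 6 CIH arrays. Members gather at the right, with 62 at 0.9 or more, while the other units are spread over the whole range.

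Isg20, an exonuclease that degrades RNA, had the highest of these correlations, 0.993 (rho 1.00, exact permutation p = 0.0014 over 720 orders, adjusted over all units p = 0.216), and 0.948 without the 2 farthest arrays. Cnnm1 followed at 0.991, then Ube2o at 0.986, Slc25a37 at 0.983 and Pip5k1a at 0.980. With 6 arrays the smallest exact p is 0.0014, and no unit's adjusted permutation p was below 0.216, so this test alone could call nothing. At the other end were Ndc1, a pore membrane protein of the nuclear envelope, at 0.385, Irf2bp1 at 0.479 and Gnl2, a nucleolar GTPase, at 0.481. Ndc1 was among the 10 highest in the rule, and its 2 spots differed in CIH, with r of -0.59 and 0.94. Of the 30 members with several spots on all 6 arrays, 27 had only spots with positive r, 8 had every spot at 0.8 or above and 3 had a spot below 0.

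The slope on the anchor gives the size of this relation, as the change in a gene's log2 ratio for a change of 1 in the anchor's. The members' slopes in CIH had a median of 0.72 (range 0.16 to 1.55), beside -0.01 in the other units. By limma with Benjamini-Hochberg adjustment over all units, 63 of the 100 members had a positive slope that passed an adjusted p of 0.05, beside 3.11% of all units, and none a negative one, beside 0.609%. At an unadjusted p of 0.05, 89 passed, beside 26.1% of all units either way. Of the 296 units called positive, 63 were members, 90 other named genes and 143 spots with no single gene name.

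The count of calls changed with the arrays left out, with the scaling of the arrays and with the model. Without CIH 1 week replicate 2, the array with the highest anchor, 0 members were called (64 at an unadjusted p of 0.05, beside 15.5% of all units). Without CIH 2 weeks replicate 2, the lowest, 7 were (0.437% of all units), namely Cnnm1, Dio3os, Entpd7, Fgfr2, Il10ra, Isg20 and Phtf1. Without CIH 4 weeks replicate 1, whose Eif2s3y went against its labels, 52 were called, beside 2.23% of all units. After quantile normalization or scaling of the arrays to a common spread, 0 were called (83 and 80 at an unadjusted p of 0.05, beside 12.7% and 10.4% of all units), with 98 slopes positive each time. With the weeks of CIH as a factor beside the anchor, 0 were called (51 at an unadjusted p of 0.05, beside 14.4% of all units) and 97 slopes were positive. The interquartile range of an array's ratios, 0.43 to 0.85 in CIH, was largest on the array with the lowest anchor, and its part in the slopes beyond these values was not tested.

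**Figure D4:**
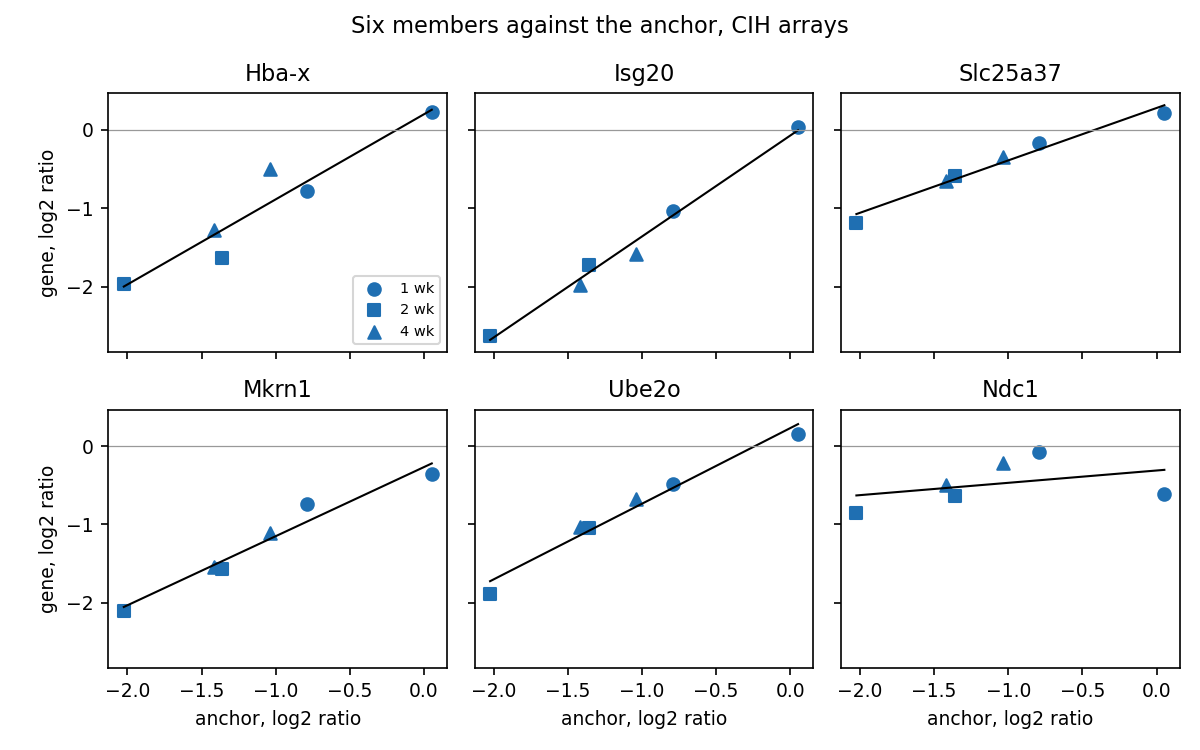
For 6 members the log2 ratio is plotted against the anchor mean in the 6 CIH arrays, with marks by duration and the fitted line. Isg20 has the steepest line of the 6, with a slope of 1.29, and Ndc1 the flattest, with 0.16, where CIH 1 week replicate 2 lies far below the other 1-week array.

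Another reading is how far the members' ratio stood from 0 in CIH, averaged over the 3 durations. It was lower than 0 for 79 members by limma with adjusted p under 0.05, beside 8.37% of all 10272 units, and higher for 0, beside 3.73%. At an unadjusted p of 0.05, 95 passed, beside 32.5% of all units either way. The members' median was -0.64 and 99 estimates were negative, beside 56.7% of all units. This level is not independent of the anchor's, since the members were chosen to follow the anchor, so the 79 calls are not separate support. Rtg4, with a CIH r of 0.878 and a mean of 0.07, was the only member with an estimate above 0. The count fell to 7 without CIH 1 week replicate 1, the array with conflicting labels, to 12 without CIH 2 weeks replicate 2 and to 19 without CIH 4 weeks replicate 1, and to 19 with arrays scaled to a common spread, while the medians were -0.53, -0.58, -0.60 and -0.54. The shares of all units called lower in these 4 fits were 1.13%, 1.63%, 1.73% and 2.92%. Phtf1, Fgfr2, Mkrn1, Nxf2, Smox, Ccdc66 and Sfi1 were called each time any single CIH array was left out.

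Mkrn1 read -0.73 and -0.35 at 1 week, -1.57 and -2.10 at 2 weeks and -1.54 and -1.11 at 4 weeks of CIH, and between -0.23 and 0.88 in control. With Sfi1, a centrosomal protein, it was 1 of 2 members with all CIH arrays below all control arrays, beside 0.243% of the named genes on all 18 arrays. The control arrays in this count are among those that chose the members. Below 0 on all 6 CIH arrays were 21 members, beside 8.49%, and on at least 5 of them 95 members, beside 26.5%. Without CIH 4 weeks replicate 1 the counts were 2 below all control arrays (0.262%), 21 below 0 on all 5 arrays (9.86%) and 95 on at least 4 (30.6%).

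The members were grouped by known role into 7 sets after their values were seen, which hold 51 of the 100, and the sets are described with no test of their own. None of the slope calls in these sets was kept without CIH 1 week replicate 2, and of the calls below 0 only those of Fgfr2, Mkrn1, Nxf2 and Smox were kept without CIH 1 week replicate 1. The counts in each set are to be read beside the 63 and 79 of all 100 members and the 3.11% and 8.37% of all units. Without CIH 4 weeks replicate 1, in the order below, the sets had 4, 5, 4, 3, 5, 7 and 2 called slopes and 0, 2, 1, 1, 1, 2 and 2 means called below 0. Adjusted p-values in what follows are limma's over all units.

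Genes of globin and iron handling made up 6 members. Hba-x read -0.78 and 0.22 at 1 week, -1.64 and -1.97 at 2 weeks and -1.27 and -0.50 at 4 weeks of CIH. It was lowest at 2 weeks and above 0 only on CIH 1 week replicate 2, with a slope of 1.09 (SE 0.17, adjusted p = 0.006544). Hbb-y, another embryonic beta-like globin, had a steeper slope of 1.48 (SE 0.25, adjusted p = 0.007697), but its mean in CIH was -0.29 (SE 0.35, adjusted p = 0.581), since 3 of its arrays were above 0 and 2 weeks replicate 2 stood at -2.30. Globin genes are close in sequence, and how much a spot for an embryonic globin takes up of adult globin RNA was not tested.

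Slc25a37 is mitoferrin 1, which brings iron into mitochondria for heme synthesis. It read -0.16 and 0.21 at 1 week, -0.59 and -1.19 at 2 weeks and -0.65 and -0.34 at 4 weeks of CIH, a smaller range than that of the globins, but in the same order of arrays as the anchor (rho 1.00). Its slope was 0.67 (SE 0.14, adjusted p = 0.02322). Slc25a39, a mitochondrial carrier of glutathione, had a like slope of 0.67 (SE 0.16, adjusted p = 0.03802). Ncoa4, the receptor that delivers ferritin to lysosomes, and the pseudogene Ncoa4-ps had slopes of 0.33 (SE 0.18, adjusted p = 0.243) and 0.28 (SE 0.15, adjusted p = 0.2409), which did not pass. The 2 are close in sequence, and how far their spots share signal was not tested.

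The clearance of proteins, organelles or RNA is the role of 10 members, of which 8 had a called slope and 8 a mean below 0 that passed, while all 10 means were negative. Ube2o, a ubiquitin-conjugating enzyme that removes ribosomes and unpaired globin chains from reticulocytes, read -0.48 and 0.16 at 1 week, -1.04 and -1.89 at 2 weeks and -1.04 and -0.67 at 4 weeks of CIH. Its slope was 0.96 (SE 0.14, adjusted p = 0.00552). Bnip3l, the receptor through which maturing red cells remove their mitochondria, read -0.30 and 0.00 at 1 week, -0.69 and -1.56 at 2 weeks and -1.16 and -0.78 at 4 weeks. Its slope was 0.76 (SE 0.16, adjusted p = 0.01992). Both genes were near 0 on CIH 1 week replicate 2 and lowest on CIH 2 weeks replicate 2.

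Isg20 had the lowest mean of the members over CIH, with -1.03 and 0.04 at 1 week, -1.72 and -2.62 at 2 weeks and -1.97 and -1.58 at 4 weeks, a mean of -1.48 (SE 0.28, adjusted p = 0.007227). Its slope of 1.29 (SE 0.14) had the smallest adjusted p of the members, 0.00211. The ubiquitin ligase parts Cul4b, Trim11 and Topors had called slopes of 0.63, 0.57 and 0.65. Dcaf12, a substrate receptor of CUL4 ligases (0.66, adjusted p = 0.05144), and Psme3 (0.44, adjusted p = 0.1015) did not pass.

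Of the 7 genes of membrane and transport, 4 had a called slope, namely Hip1r (1.07), Stxbp2 (1.02), Tspan14 (0.99) and Pip5k1a (0.90), which act in endocytosis, vesicle fusion, the membrane traffic of ADAM10 and phosphoinositide synthesis. Mpp1, whose promoter is printed above, read -0.59 and -0.18 at 1 week, -0.48 and -1.48 at 2 weeks and -0.90 and -0.73 at 4 weeks of CIH, below 0 on all 6 arrays. Its mean was -0.73 (SE 0.18, adjusted p = 0.01998) and its slope 0.56 (SE 0.16, adjusted p = 0.06998). Slc3a2 and Slc7a7, the heavy and light chain of an amino acid transporter, had mean ratios of -0.51 (SE 0.10, adjusted p = 0.006806) and -0.35 (SE 0.10, adjusted p = 0.04024).

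Among 8 metabolic enzymes 5 had a called slope. Entpd7, a nucleotide-splitting enzyme, had the steepest at 1.16 (SE 0.16, adjusted p = 0.004005), and Rrm1, the large subunit of ribonucleotide reductase, 1.09 (SE 0.18, adjusted p = 0.006544). Rrm1 was above 0 on both 1-week arrays (0.17 and 0.39) and below 0 on the other 4 CIH arrays (-0.56 to -1.69). Tkt, transketolase of the pentose phosphate pathway, had a slope of 0.49 (SE 0.14, adjusted p = 0.07195), and Smox, spermine oxidase, 0.55 (SE 0.16, adjusted p = 0.06297) with a mean of -0.62 (SE 0.10, adjusted p = 0.005). Shmt1, of one-carbon metabolism, passed neither test.

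In cell division act 7 members, and all 7 had a mean below 0 that passed, with 5 slopes called. The steepest was that of Zwilch, a kinetochore protein, at 1.06 (SE 0.17, adjusted p = 0.006544), followed by Mad2l2 (0.96), Cdca8, a subunit of the chromosomal passenger complex (0.82), Spc24 (0.79) and Rangap1 (0.63). Cdca8 read -0.60 and 0.01 at 1 week, -1.49 and -1.73 at 2 weeks and -0.66 and -0.59 at 4 weeks of CIH. Over the whole list of 26 tested cell-cycle genes, however, the median slope was 0.08, and the called ones were Rrm1 and the replication gene Mcm3.

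All 8 developmental regulators and receptors had a called slope and a mean below 0 that passed. Il10ra, the ligand-binding chain of the interleukin 10 receptor, had a slope of 1.25 (SE 0.20, adjusted p = 0.006544), Hoxb6 1.24 (SE 0.17, adjusted p = 0.004147) and Fgfr2, a receptor of fibroblast growth factors, 1.11 (SE 0.16, adjusted p = 0.004147). Fgfr2 read -1.26 and 0.10 at 1 week, -1.74 and -2.20 at 2 weeks and -1.69 and -1.06 at 4 weeks of CIH, and its mean was -1.31 (SE 0.20, adjusted p = 0.004309). Mycl, Hoxc9, Ptprs, Sall4 and Dtx1 had slopes between 0.62 and 0.97. The 5 members of RNA handling and translation had 5 means below 0 that passed and 2 called slopes, those of Nxf2 (0.98) and the mitochondrial ribosomal protein Mrpl47 (0.94). Over the 60 tested mitochondrial ribosomal protein genes, however, Mrpl47 had the only called slope. Their median CIH r was -0.292, with 24 of 60 positive. Gnl2 had a mean of -0.85 (SE 0.18, adjusted p = 0.008982) beside a slope of 0.22 (SE 0.18, adjusted p = 0.4335), and was as low on CIH 1 week replicate 1 (-1.18) as on 4 weeks replicate 1 (-1.22).

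**Figure D5:**
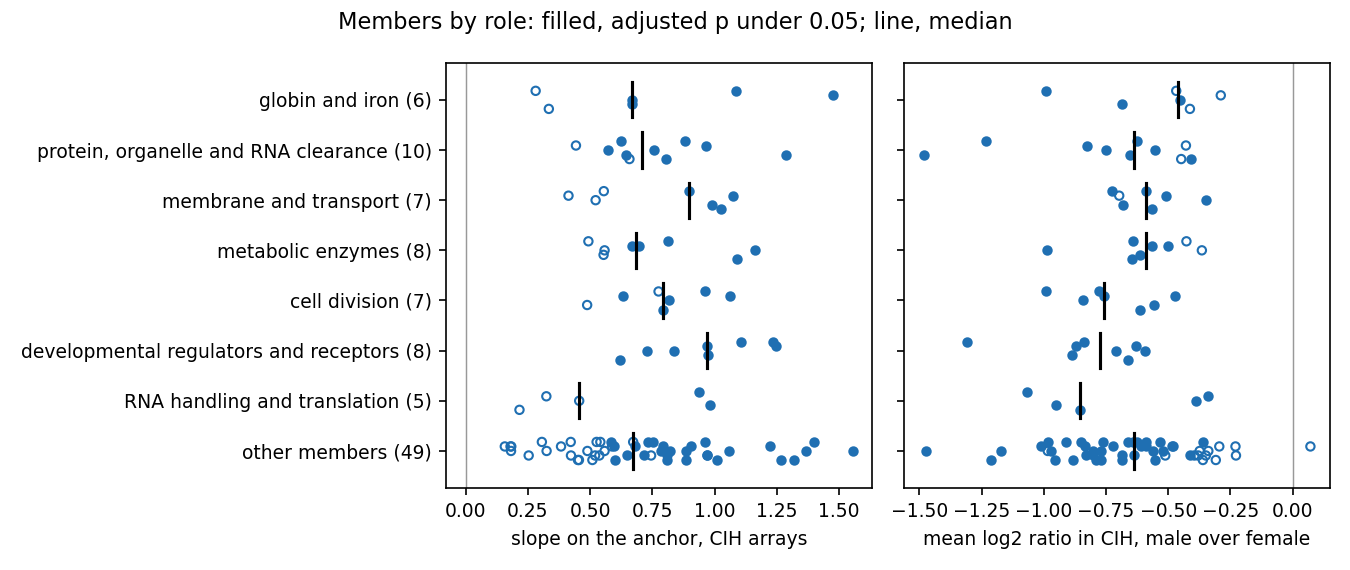
Each point is 1 member, placed by its slope on the anchor in the CIH arrays (left) and its mean log2 ratio in CIH (right), by role, with the number of members in brackets, filled where the adjusted p is under 0.05 and with a line at the median. All 8 developmental regulators and receptors are filled in both panels, and 1 of the 49 members outside the role sets lies above 0 on the right.

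Phtf1, a membrane protein of the endoplasmic reticulum, had the steepest slope of all members, 1.55 (SE 0.19, adjusted p = 0.002289). It read -0.44 and 0.11 at 1 week, -2.26 and -2.90 at 2 weeks and -1.91 and -1.44 at 4 weeks of CIH, beside values between -0.41 and 0.61 in control. It was the only unit of 10272 (0.00974%) called in CIH minus control, at -1.64 (SE 0.20, adjusted p = 0.005379), and the call was lost with arrays scaled to a common spread.

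For the other members CIH minus control missed the threshold, although all 100 estimates were negative, beside 50.9% of all units, with a median of -0.89. An unadjusted p under 0.05 was reached by 95, beside 12.7% of all units. The control arrays of this contrast are among those that chose the members. The number called was 43 with arrays not centred, beside 1.86% of all units. It was 57 (2.91%) without control 2 weeks replicate 1, whose code is that of a 1-week control, 44 (1.96%) without CIH 1 week replicate 2 and 19 (0.791%) without CIH 4 weeks replicate 2. Without CIH 4 weeks replicate 1 it was 1, and with CIH 1 week replicate 1 moved to the 2-week CCH group also 1.

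Duration within CIH gave no call. Between 4 weeks and 1 week 0 members passed (4 at an unadjusted p under 0.05, beside 2.76% of all units), although 97 estimates were negative, beside 45.4% of all units, with a median of -0.50. That median was -0.17 without CIH 1 week replicate 2 and -0.37 without CIH 4 weeks replicate 1. In a test of whether CIH minus control changed with duration, 0 members were called by limma (18 at an unadjusted p under 0.05, beside 8.79% of all units) and the smallest adjusted p was 0.323.

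Only genes with values on all 18 arrays could be members, and most red-cell genes on the lists that had them were not. Of the 18 measured genes of heme synthesis and handling 16 had values on all 18 arrays, and 1 other than the anchor's was a member (Slc25a37). Of 14 tested 1 slope was called positive and 1 negative, with a median of -0.07. Of 19 measured red-cell membrane genes 11 had values on all 18 arrays, the anchor gene Slc4a1 among them, and 0 were members. Of 12 membrane genes tested 1 slope was called (Cd24a). Their median slope was -0.07 and their median CIH r -0.22, with 5 of 12 positive, from 0.936 for Cd24a to -0.845 for Slc16a1. Of 18 measured erythroid transcription factors and signalling genes 11 had values on all 18 arrays, and 0 were members. Gata1, with values on 12 arrays, and Klf1, on 16, could not be. Of these 11 genes 0 slopes were called, with a median CIH r of 0.514, from 0.896 for Hemgn to -0.508 for Stat5a. The list of late maturation genes gave 4 members (Bnip3l, Ube2o, Mkrn1 and Isg20), which were also its 4 called slopes of 17 tested. Over the 17 genes, however, the median slope was 0.13 and the median CIH r 0.226. Of these r values 13 were positive, and they ran from 0.993 for Isg20 to -0.753 for Tfrc. Globins gave Hba-x and Hbb-y, the only 2 tested, because the adult chain Hbb-b1 had a value on 2 arrays.

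Markers of other blood cells moved in part with the anchor in the CIH arrays. The platelet list had a median CIH r of 0.685 over 6 genes, with 1 of 6 slopes called (F2rl2) but Pf4 at -0.11, and its list median ran from -0.71 to 0.40 over the CIH arrays and from 0.03 to 0.36 in control. The neutrophil (3 genes, 0.537), lymphocyte (2 genes, 0.693) and macrophage (10 genes, 0.431) lists had positive medians with 0 slopes called. The median CIH r was 0.202 over 11 endothelial genes, -0.36 over 13 cardiomyocyte genes and -0.53 over 16 fibroblast and matrix genes, with 0 slopes called in these 3 lists. Lists of no single cell type were negative too, with -0.52 over 62 ribosomal protein genes and -0.51 over 41 proteasome genes. The part of other cell types in the members' ratios was not tested. A ratio shows no level, so the labelled tissue could not be checked against its markers.

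The members do not share a chromosome, though 9 of them (9.28% of those placed) lie on chromosome 14, beside 3.71% of the genes on all arrays, among them Slc25a37, Bnip3l, Tspan14, Ncoa4, Slc7a7 and Tkt. Chromosomes 4 and 11 held 10 each (10.31%), beside 6.23% and 9.03% of the genes on all arrays. The X chromosome held 4 (4.12%, beside 2.78%), namely Nxf2, Cul4b, Mpp1 and Usp27x. By RefSeq 93 are protein coding, 2 are pseudogenes, 2 are long noncoding RNAs (Dio3os and 1500011B03Rik) and 3 were not matched.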

How the data were processed

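The authors deposited 1 log2 ratio per spot, scaled so that the linear ratios average 1 on every array, as the values show. Background correction, spot filters, normalization and the ratio's direction are not given in the sources used here. A single gene symbol was given for 18511 of the 28704 spots, and several for 937.

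The array median was subtracted and spots sharing a symbol were averaged, over whichever of them had values on that array. limma 3.58.1 in R 4.3.3 fitted each unit's slope on the anchor over the 6 CIH arrays (9530 units). It also fitted 9 group means over all 18 arrays (10272 units with a value in each group, 6945 of them named genes; prior degrees of freedom 5.95, prior SD 0.269). Tests were two-sided, p-values were adjusted by Benjamini-Hochberg and called under 0.05, and the scripts were tested on simulated data. Figures were drawn with matplotlib 3.10.9.

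Alternatives were no centring, quantile normalization, a common spread, weeks as a factor, a replicate block, each anchor gene or array left out, and the 4 arrays nearest the anchor median, chosen after seeing the data. Members, lists and role sets were chosen with earlier results of these data known. Named genes were the anchor, members called (at most 10 per direction by size), the 10 highest in the rule, the 5 highest and 5 lowest in CIH, ranks 96 to 105, list genes and, added after values were seen, members with a known role. The number of arrays limits the precision.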

Additional observations from a re-analysis of the deposited data

Results flagged for a closer look

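In each condition the 6 arrays were searched for 1 value far from the rest, with a gap to its nearest neighbour above 0.625 of the whole range. Of 228 such groups (named members, anchor genes, Eif2s3y and array summaries in 3 conditions) 23 held one, or 10.09%, where chance gives about 1 in 20, and the genes of an array are not independent of each other.

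CCH 2 weeks replicate 1 held 18 of the 23, each as the lowest of the 6 CCH arrays, with log2 ratios for Hbb-bh1 (-2.08), Bicdl1 (-1.52), Cnnm1 (-1.53), Dio3os (-1.51), Fgfr2 (-1.70), Hba-x (-1.72), Hoxb6 (-1.86), Il10ra (-1.23), Isg20 (-2.10), Mad2l2 (-1.47), Mrpl47 (-1.50), Ndc1 (-1.04), Nxf2 (-1.04), Pam (-2.18), Pex16 (-0.94), Pgm2 (-1.30), Sfi1 (-0.91) and T2 (-1.95). All 6 CCH arrays are among those that chose the members.

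The other 5 were on other arrays. In control, Bpgm stood at 1.48 and Psme3 at 0.61 on 4 weeks replicate 2, above the other 5 arrays, and Mpp1 at -0.89 on 1 week replicate 1, below them. In CIH, Gda, guanine deaminase, stood at 0.59 on 1 week replicate 2, above the other arrays (-1.18 to -0.61). Eif2s3y stood at -0.026 on CIH 4 weeks replicate 1, below the other arrays (1.43 to 2.02).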

How the results depend on the processing

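For the 4 tests, no single named member changed the sign of its estimate after passing the threshold, except Hip1r, whose slope was -0.079 over the 4 arrays nearest the anchor median. The count of members with a called positive slope (63) was 0 with quantile normalization, with a common spread and with weeks as a factor, and 1 over those 4 arrays. Leaving out 1 CIH array gave 0 to 70. The count below 0 in CIH (79) was 19 with a common spread and 7 to 80 when 1 CIH array was left out. The count lower in CIH than in control (1) was 43 without centring, 0 with a common spread and 1 to 57 when 1 array was left out. Leaving out 1 CIH array gave 0 calls between 4 weeks and 1 week each time. Applied again, the rule kept 71 to 98 members when 1 array was left out and 43 over the control arrays only. The median CIH r (0.921) was 0.717 without the 2 arrays farthest from the anchor median. The fits on fewer arrays have fewer samples; for the others the cause was not tested.

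With the replicate block the count lower in CIH than in control was 36, that of positive slopes 53 and that below 0 in CIH 78. The replicate numbers do not pair the samples: differences between replicates in control and CIH correlated at -0.22, -0.18 and -0.54 at 1, 2 and 4 weeks, and 2 arrays a group limit every comparison.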
